A study of Rattus norvegicus with 119 samples.

Results

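Decorin (Dcn) and asporin (Aspn) are 2 of the 32662 genes counted in the series, and both belong to class I of the small leucine-rich proteoglycans (SLRPs). Dcn was taken by its Ensembl identifier, ENSRNOG00000004554, and Aspn by the identifier that the tables of differential transcripts pair with its symbol, ENSRNOG00000015410. Tissue came from female Wistar rats on the day of birth (postnatal day 0), pooled over many animals, and the labels name no transgene or treatment. The ventral mesenchymal pad (VMP), a condensed mesenchyme on the urethra that can induce prostate epithelium, was compared with the adjacent urethra (SU), which holds smooth muscle, the mesenchyme around the urethra and its epithelium. Each tissue was measured by Tag-seq of a pool of intact tissue, by RNA-seq of collagenase-dissociated cells, and by single-cell RNA-seq (scRNA-seq) of 49 VMP and 66 SU cells captured on a Fluidigm C1 chip.

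SLRPs are secreted proteins built around a leucine-rich repeat domain, and many carry glycosaminoglycan chains. They sit on collagen fibrils, where they affect how fibrils assemble and space themselves, and several bind growth factors in the matrix. Decorin is the best known of them in fibroblast-rich connective tissue. It carries a chondroitin or dermatan sulfate chain, binds collagen type I and can hold transforming growth factor β. Asporin is named for the aspartate residues at its amino end, carries no typical glycosaminoglycan chain, and binds collagen and transforming growth factor β.

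In the Rnor_6.0 build, Dcn spans chromosome 7 from 38742051 to 38782323, next to lumican (Lum) at 38819771 to 38826862. Aspn spans chromosome 17 from 14656009 to 14679409, close to osteoglycin (Ogn) at 14607442 to 14627937. The same build holds a second asporin row, Aspnl1 (ENSRNOG00000050431), on chromosome 17 from 15495790 to 15519282. In the GRCr8 annotation of RefSeq the name Aspnl1 is a synonym of a single Aspn gene. Reads that match both rows may have been split or dropped, so every Aspn value is uncertain to that extent, and the Aspnl1 values are given beside it. Biglycan (Bgn), the other class I member with an identifier, is on the X chromosome from 157319046 to 157331204.

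Each bulk assay has a single library for each tissue, and the cells of a tissue came from a shared pool, so no comparison within an assay has replicates and none was tested. Intervals on ratios and levels cover counting error only. Totals were 7870450 (VMP) and 8215177 (SU) counts in Tag-seq, 4397699 and 7007767 by RNA-seq, and 199849 to 1488320 in single cells. The labelled tissues were checked with 9 epithelial genes, whose summed level in CPM (counts scaled to library size) was 528 in VMP and 8815 in SU by Tag-seq, 7.05 and 208 by RNA-seq, and 0.570 and 7.51 in the summed cells. The SU cells therefore held almost none of the epithelial RNA seen in SU tissue. No 2 cells had identical values. The table of SU cells holds more columns than the number of SU libraries described as sequenced, and all were used.

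Dcn was abundant in both tissues, and the 3 assays gave different answers on which had more. In Tag-seq, which reads a tag per transcript and so does not scale with length, the VMP library held 66706 Dcn counts and the SU library 20610. These are levels of 8476 CPM (8411 to 8540) and 2509 CPM (2475 to 2543), which made Dcn the transcript with rank 4 in VMP and rank 20 in SU. The VMP level was 3.09-fold higher after TMM scaling (a scaling that assumes most transcripts do not differ), a log2 ratio of 1.63 (1.60 to 1.65). A transcript was called when its log2 ratio was at least 1.5 in size, and 7.2% of the 12191 transcripts with CPM above 1 were called toward VMP. Dcn was just past that limit.

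In RNA-seq of dissociated cells the libraries held 27776 (VMP) and 40241 (SU) Dcn counts. The levels were 6316 CPM (6242 to 6391) and 5742 CPM (5686 to 5799). They were close, and the TMM-scaled log2 ratio was -0.08 (-0.10 to -0.05). Scaled by total count it was 0.14, so the sign depended on the scaling, which moved the median ratio of all transcripts by 0.21 here and by 0.13 in Tag-seq.

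Summed over cells, Dcn had 113153 counts in VMP and 166759 in SU, or 3796 and 3772 CPM. The log2 ratio of 0.01 (-0.002 to 0.02) spanned 0. Under the alternatives it ran from -0.51 to 0.03, the lowest being with scaling by spike-in counts.

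Only a joint fit of the 4 bulk libraries, with assay and tissue as terms, leaves any spread to test against, and that spread is the disagreement between assays, not between animals. The edgeR quasi-likelihood test gave Dcn a log2 fold change of 0.78 with an adjusted p of 1.00, and 2.05% of the 15221 transcripts were called. The mean difference over the assays did not pass a test against the disagreement between them. Tag-seq used intact tissue and RNA-seq used sieved, dissociated cells, so assay and input cannot be told apart. In bulk samples, fewer cells of a type and less RNA per cell cannot be told apart either.

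Aspn was not seen by Tag-seq, and the other assays gave opposite directions. Both Tag-seq libraries had 0 Aspn tags, which allows at most 0.381 CPM in VMP and 0.365 CPM in SU. Aspnl1 and Ogn were also at 0 in both. A lack of tags was not rare among expressed transcripts, since 199 of the 2577 with at least 100 CPM in an RNA-seq library (7.72%) had none. Only uniquely mapped tags were kept, and a transcript without a usable site for the enzyme gives no tag, so the 0 is not evidence of absence.

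In RNA-seq Aspn had 142 counts in VMP and 754 in SU, levels of 32.3 CPM (27.2 to 38.1) and 108 CPM (100 to 116). SU was 3.85-fold higher, a log2 ratio of -1.95 (-2.22 to -1.69). In this assay 15.2% of 17527 transcripts were called toward SU. Aspnl1 had 141 and 1174 counts and a log2 ratio of -2.60 (-2.86 to -2.35). Both rows added gave -2.31.

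Summed over cells, the direction was the other way. Aspn had 3947 counts in VMP and 3564 in SU, levels of 132 CPM (128 to 137) and 80.6 CPM (78 to 83.3). The log2 ratio was 0.72 (0.65 to 0.78), a 1.64-fold higher level in VMP and short of the limit that 17.8% of 14450 transcripts passed toward VMP. Aspnl1 gave 0.42 (0.37 to 0.48) and both rows added gave 0.55. The Aspn ratio stayed positive under every alternative run, from 0.52 to 0.89, but all of these were sums or means over cells. The median over cells was not higher in VMP. It was 1.67 CPM of Aspn in VMP and 1.79 CPM in SU. With both rows added it was 3.03 and 5.24 CPM. These medians are near the floor. The edgeR fit of the bulk libraries gives no usable test for Aspn, because only the RNA-seq pair has counts.

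**Figure D1:**
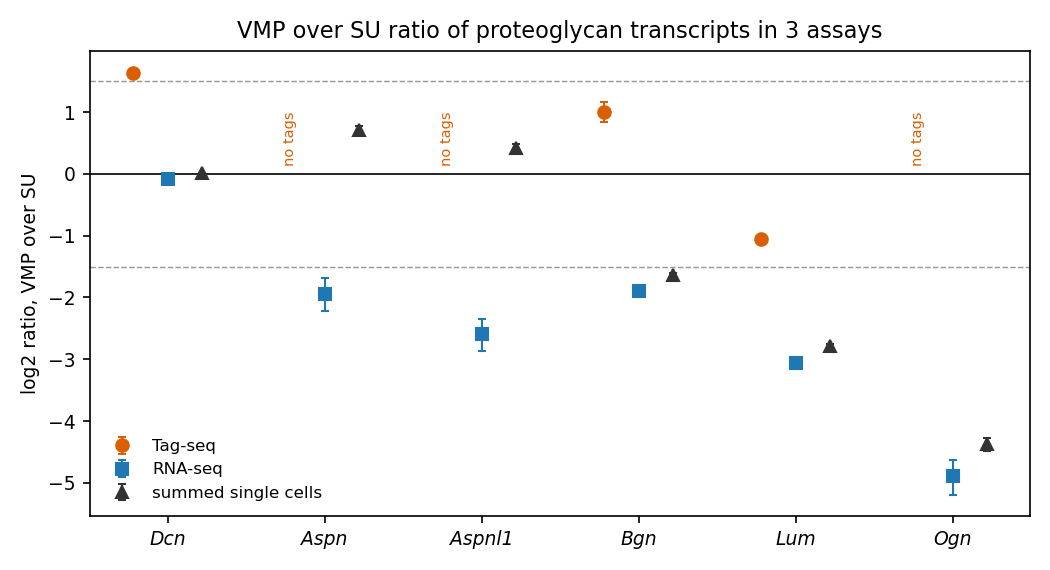
Log2 ratio of VMP over SU (vertical axis) for Dcn, both asporin rows, Bgn, Lum and Ogn in Tag-seq, RNA-seq and the summed single cells, with 95% counting intervals and dashed lines at the limit of 1.5. Dcn is at 1.63 in Tag-seq and near 0 in the other assays, and Aspn is at -1.95 in RNA-seq and 0.72 in the summed cells.

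The other SLRPs with an identifier were higher in SU in most assays. Of 17 SLRP symbols searched, 5 had an identifier in the tables used here (Dcn, Aspn, Bgn, Lum and Ogn), and those tables list differential transcripts, so these genes are not a neutral sample of the family, and the same holds for the other gene lists used here. Bgn, a close relative of decorin with glycosaminoglycan chains of the same kind, had 937 (VMP) and 446 (SU) counts in Tag-seq, 2235 and 11372 by RNA-seq, and 13831 and 63409 in the summed cells. Its log2 ratio was 1.00 (0.84 to 1.17) in Tag-seq, -1.89 (-1.95 to -1.82) in RNA-seq and -1.63 (-1.65 to -1.60) in the summed cells. Like Dcn, it was higher in VMP in Tag-seq. Unlike Dcn, it passed the limit toward SU in both other assays.

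Lum, a keratan sulfate proteoglycan of class II that lies beside Dcn, was higher in SU in all 3 assays. Its counts were 6510 and 12838 in Tag-seq, 2279 and 26047 by RNA-seq, and 20844 and 211872 in the summed cells. The log2 ratios were -1.05, -3.06 and -2.78 for these. In the joint edgeR fit its log2 fold change was -2.05 with an adjusted p of 0.194. Ogn, a class III member near Aspn, had 109 and 4472 counts in RNA-seq and 818 and 25220 in the summed cells, with log2 ratios of -4.89 and -4.38. In the joint edgeR fit Bgn had a log2 fold change of -0.45 with an adjusted p of 1.00. Over the 3 class I genes, 1 of the 2 measured in Tag-seq passed the limit toward VMP (7.2% of all transcripts), 2 of 3 measured in RNA-seq passed it toward SU (15.2%), and in the summed cells none of 3 passed it toward VMP (17.8%) and 1 toward SU (20.7%).

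Every cell held Dcn reads, 49 of 49 in VMP and 66 of 66 in SU, with 109 to 9061 counts in a cell. In VMP the lowest cell had 193 CPM, the median was 3078 CPM and the highest 10180 CPM. In SU these were 158, 3245 and 10176 CPM. The tissues overlapped over nearly the whole range, and the quartiles ran from 2113 to 4463 CPM in VMP and from 1820 to 4996 CPM in SU.

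Dcn varied less between cells than most genes seen in every cell. There were 387 genes with reads in all 115 cells. The coefficient of variation (SD over mean) of Dcn was 0.635 in VMP and 0.636 in SU, against medians of 0.848 and 0.806 over the 387 genes, and 22.2% and 23% of them varied less. These genes were not matched to Dcn by level, which can affect this measure. Of the abundant collagen genes, Col1a1 had 0.511 in VMP and 0.534 in SU, and Col3a1 had 0.730 and 0.555. The Dcn medians moved little with depth or scaling. After each cell was thinned to 199849 counts they were 3087 CPM in VMP and 3272 CPM in SU, and scaled by spike-in counts they were 3025 and 3299.

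Aspn was patchy. It had reads in 28 of 49 VMP cells (57.1%, Clopper-Pearson interval 42.2 to 71.2) and 36 of 66 SU cells (54.5%, 41.8 to 66.9). At equal depth it had reads in 21 and 26 cells. Without thinning, 14 of the 28 VMP cells and 18 of the 36 SU cells with reads held only 1 to 10 counts. With either asporin row counted, 73.5% of VMP and 75.8% of SU cells had reads. The intervals on these percentages cover counting error only, and the cells of a tissue are not replicates.

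A minority of cells carried nearly all Aspn RNA. In VMP 10 cells (20.4%) were at 100 CPM or more and held 96.7% of the Aspn counts, while in SU 12 cells (18.2%) held 92.5%. The highest VMP cells were cell 94 at 1220 CPM, cell 33 at 1022 CPM and cell 9 at 901 CPM. The highest SU cells were cell 33 at 945 CPM, cell 92 at 796 CPM and cell 30 at 720 CPM. The 5 highest VMP cells held 73.5% of that tissue's counts and the 5 highest SU cells 69.1%, so the summed Aspn ratio rests on few cells in each tissue. With the 3 highest cells of each tissue left out it was 0.89.

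**Figure D2:**
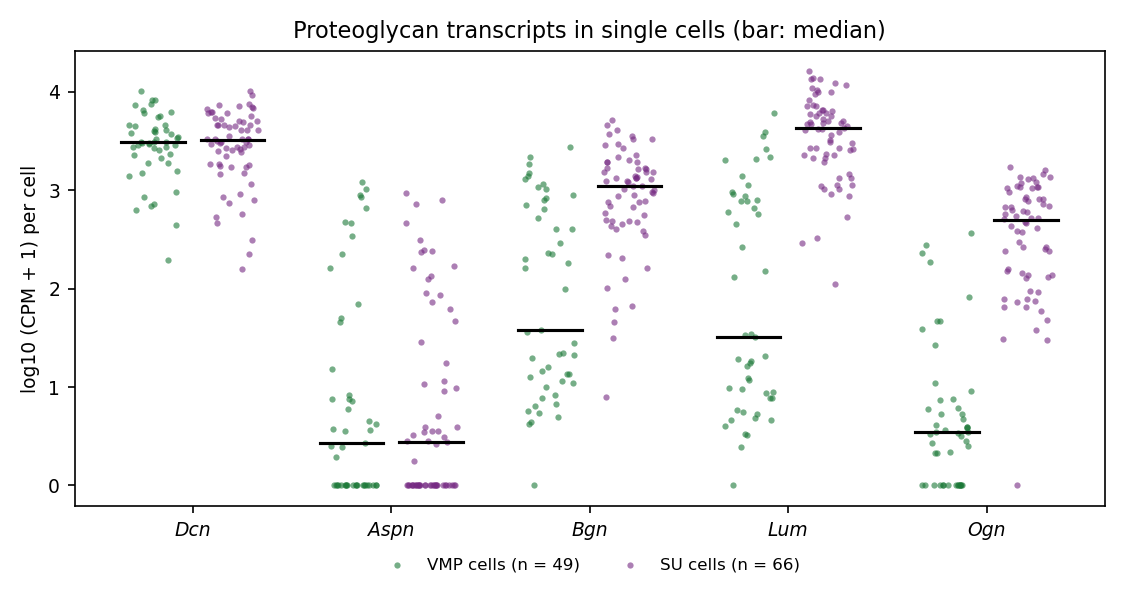
Level per cell as log10 (CPM + 1) of Dcn, Aspn, Bgn, Lum and Ogn in the 49 VMP and 66 SU cells, with a bar at the median. Dcn lies at about the same height in both tissues, Aspn is at 0 in many cells of both, and Bgn, Lum and Ogn have higher medians in SU.

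Bgn, Lum and Ogn had far higher medians in SU cells than in VMP cells, with no test made over cells. At least 100 CPM of Lum was found in 22 of 49 VMP cells and 66 of 66 SU cells, with medians of 31.4 and 4262 CPM. The counts for Bgn were 23 of 49 and 60 of 66 cells, with medians of 36.8 and 1100 CPM. Ogn reached that level in 4 of 49 VMP cells and 52 of 66 SU cells, with medians of 2.47 and 491 CPM. All 115 cells had at least 100 CPM of Dcn.

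The asporin rows went together from cell to cell. All 10 VMP and all 12 SU cells with at least 100 CPM of Aspn also had Aspnl1 reads, at 56.2 to 1727 CPM in VMP and 48.3 to 1578 CPM in SU. Both rows had reads in 22 VMP and 30 SU cells, neither in 13 and 16. The Aspn row alone had reads in 6 cells of each tissue, and the Aspnl1 row alone in 8 VMP and 14 SU cells. Of all asporin counts, the Aspn row took 45.4% in VMP and 40.4% in SU cells, and 50.2% and 39.1% in RNA-seq. Whether the reads come from a pair of genes or from a single gene listed in 2 places was not tested.

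**Figure D3:**
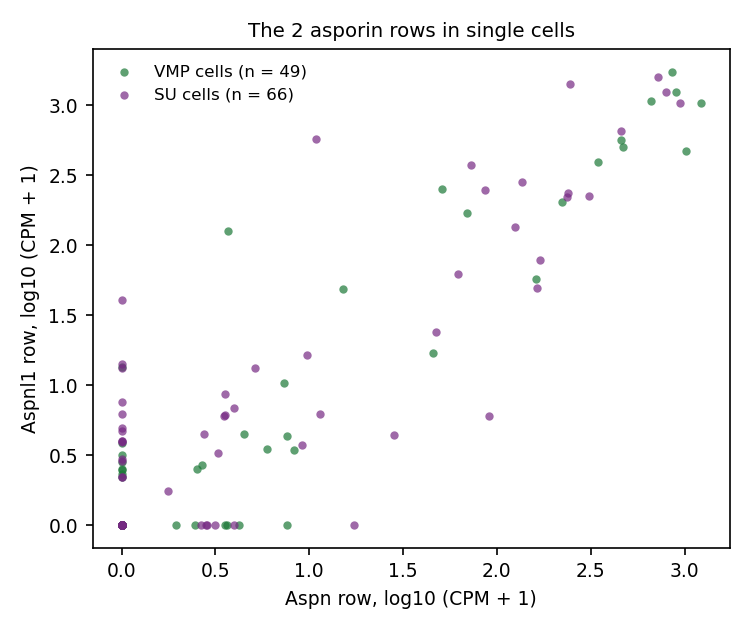
Aspnl1 against Aspn, both as log10 (CPM + 1), in each of the 49 VMP and 66 SU cells. The 10 VMP and 12 SU cells with at least 100 CPM of Aspn all have Aspnl1 reads, at 48.3 CPM or more.

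Dcn and Aspn did not go together from cell to cell. Spearman's rho between them was 0.08 over the 49 VMP cells and -0.04 over the 66 SU cells, a description over cells that share a library pool and differ in depth. Cells with at least 100 CPM of Aspn had 438 to 7583 CPM of Dcn in VMP and 918 to 10176 CPM in SU. VMP cell 9 had the third highest Aspn of its tissue and, at 438 CPM, the lowest Dcn above the limit used for low cells. It failed the check at 3 median absolute deviations, with 248738 counts, the fewest of the VMP cells, and 29% spike-in counts. VMP cell 94 was highest in Aspn and had 7269 CPM of Dcn. The VMP cell highest in Dcn, cell 86, had no Aspn reads.

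**Figure D4:**
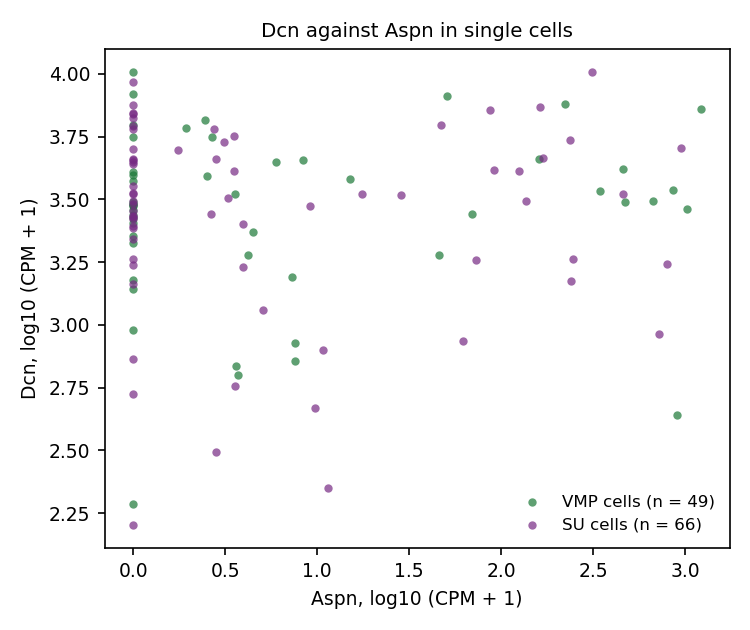
Dcn against Aspn, both as log10 (CPM + 1), in each of the 49 VMP and 66 SU cells. Cells with at least 100 CPM of Aspn range from 438 to 10176 CPM of Dcn, and cells without Aspn reads from 158 to 10180 CPM.

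With the other SLRPs, rho of Dcn in SU cells was 0.46 for Lum, 0.38 for Bgn and 0.26 for Ogn. In VMP cells it was 0.12, 0.19 and -0.01. Depth was related too, with rho between Dcn CPM and the counts of a cell at 0.37 in VMP and 0.19 in SU, and with the spike-in share at -0.08 and -0.32. Aspn had rho of 0.38 with Lum in VMP and 0.08 in SU.

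The genes most like Dcn over cells were taken by the mean of rho in VMP and rho in SU, among 1536 genes with a symbol and reads in at least 20 cells. They were Htra3 (0.41), a secreted serine protease, Gstm2 (0.38), a glutathione transferase, Ctsk (0.31), a collagen-degrading cathepsin, Dhrs7 (0.30), a dehydrogenase, and S100a6 (0.30), a calcium-binding protein. Of all 10149 genes with or without a symbol, 1% had a mean above 0.26. Dhrs7 rested on SU, with rho of 0.06 in VMP and 0.54 in SU. For Aspn, Aspnl1 stood first at 0.76. It was followed by Tmem200a (0.33), Dclk1 (0.30), a microtubule-associated kinase, and Fndc1 (0.30), and the value for Tmem200a was 0.59 in VMP and 0.07 in SU. Apart from Aspnl1 these were weak relations, and none was tested.

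Cells were called low in Dcn when they had under 0.1 of the median of all cells, which was 3108 CPM and set the limit at 311 CPM. The choice used the Dcn values themselves, so the low cells are only described. There were 4 low cells, the highest at 310 CPM and the next cell above the limit at 438 CPM. All 4 passed 3 median absolute deviations within their tissue on depth, genes detected and spike-in share, with 545063 to 837630 counts. They were not empty of Dcn, and held 115 to 171 Dcn counts each. Scaled by spike-in counts, 7 cells were low and only 2 of these 4 were among them, SU cells 44 and 66, while SU cell 43 and VMP cell 65 were at 0.117 of the median each.

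SU cell 66 was lowest, at 158 CPM of Dcn. It had 3967 CPM of Emcn (endomucin, a sialoglycoprotein of venous and capillary endothelium), 649 CPM of Tie1 (an endothelial receptor kinase) and 267 CPM of Cdh5 (vascular endothelial cadherin). It had 3661 CPM of Lum, no read of either asporin row, and collagen levels at the low end of the 66 SU cells (Col1a1 at rank 63 with 2267 CPM and Col3a1 at rank 66). SU cell 43, at 223 CPM of Dcn, had 2261 CPM of Emcn, 1672 CPM of Cdh5, 323 CPM of Tie1 and 1006 CPM of Kdr, the receptor of vascular endothelial growth factor. Its Col1a1 and Col3a1 ranked 64 and 61.

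VMP cell 65, at 193 CPM of Dcn, had 621 CPM of Emcn, 4.78 CPM of Cdh5 and no Tie1 read. It had 845 CPM of Des (desmin, an intermediate filament protein of muscle), 1302 CPM of Bgn and no Pdgfra read. Lmod1, the other matched smooth muscle gene, was at 13.1 CPM. The matched skeletal muscle genes summed to 435 CPM, all of it from Tnnc2 and Chrna1. No read was found of Myod1, Myf5, Myog, Myh3, Acta1, Tnni1 or Mylpf. Of the 48 VMP cells not low in Dcn, 3 had at least 1000 CPM of that list. VMP cells 31 and 94 had more Des, at 1021 and 957 CPM, and were not low in Dcn. SU cell 44, at 310 CPM of Dcn, had 12.8 CPM of the 3 endothelial genes summed, no Des read, 4205 CPM of Lum, 1457 CPM of Ogn and 657 CPM of Pdgfra, a receptor of fibroblasts. Its Ogn and Pdgfra ranked 3 and 5 among the 66 SU cells, while its Col1a1 and Col3a1 ranked 53 and 51 and it had no read of Pdgfrb or Thy1, which are also on the mesenchymal list. Col1a1 was toward the low end of its tissue in all 4 low cells, at rank 63 in SU cell 66, 64 in SU cell 43, 53 in SU cell 44 and 49 of 49 in VMP cell 65. Col3a1 was not, since it ranked 28 of 49 in VMP cell 65.

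The endothelial list could be followed with 3 of its 8 genes (Cdh5, Tie1 and Emcn). Their summed level ran from 12.8 to 4883 CPM in the 3 low SU cells and from 0 to 4735 CPM in the other 63 SU cells. It was 626 CPM in the low VMP cell and 0 to 2649 CPM in the other 48 VMP cells. A level of 1000 CPM, set after the values were seen, was reached by 7 SU cells and 1 VMP cell. The Dcn levels of those SU cells were 158, 223, 734, 858, 1833, 2725 and 5002 CPM. Of the 7, 6 were below the SU median. SU cell 76, at 5002 CPM of Dcn, had 1783 CPM of Emcn, 7.92 CPM of Cdh5 and no Tie1 read. Its Col1a1 and Col3a1 ranked 2 and 1 among the SU cells. The VMP cell had 2970 CPM of Dcn. Cells under 1000 CPM of the endothelial genes had 310 to 10176 CPM of Dcn in SU and 193 to 10180 CPM in VMP. The ranges therefore overlapped. Emcn, looked up after the values were seen, had rho with Dcn of -0.36 in VMP and -0.38 in SU, which placed it at rank 10147 of 10149 genes. Most VMP cells had no Emcn read, and most VMP cells with reads had only a few CPM. The VMP rho, and with it the rank, therefore rests largely on values near the floor. The sum of the 3 endothelial genes had rho with Dcn of 0.06 in VMP and -0.39 in SU, so in VMP the list did not follow Emcn.

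Without the 8 cells the summed Dcn ratio was -0.10 and the Aspn ratio 0.60. The endothelial genes themselves summed to 598 (VMP) and 203 (SU) CPM by Tag-seq, to 543 and 313 CPM by RNA-seq, and 99 and 472 CPM in the summed cells. Their part in the Dcn ratios was not tested. Doublets were not removed, and whether a chamber held more than a single cell was not tested. No epithelial read was found in 3 of the 4 low cells. SU cell 43 had 133 CPM of the epithelial list, all of it from Cldn4, and no read of the other matched epithelial genes. The leukocyte (2 of 7 genes), Schwann (1 of 7) and erythroid (2 of 5) genes that could be matched were at 0 in all 4. The summed level of the mesenchymal list (5 of 8 genes) was 3327 CPM in the low VMP cell and 3880 to 12358 CPM in the low SU cells, against 1862 to 15446 CPM and 3913 to 53740 CPM in the other cells of each tissue.

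**Figure D5:**
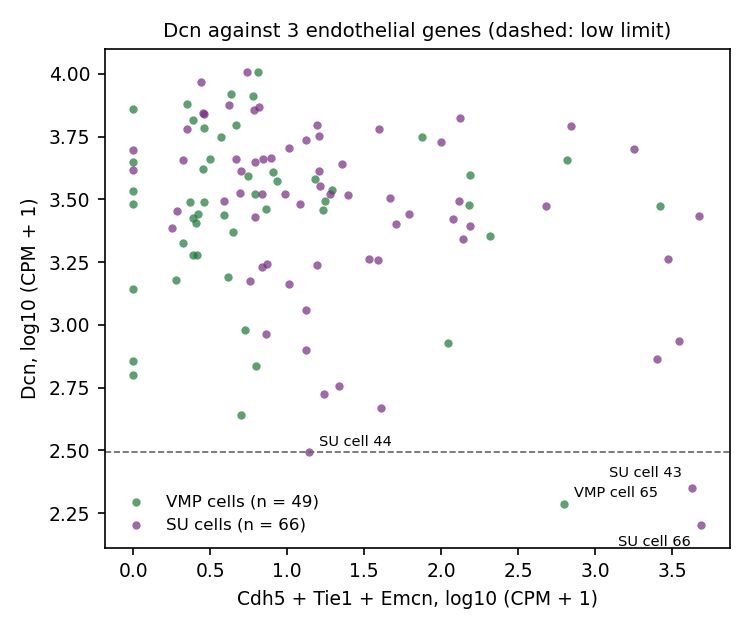
Dcn against the summed level of Cdh5, Tie1 and Emcn, both as log10 (CPM + 1), in each of the 49 VMP and 66 SU cells, with a dashed line at the limit of 311 CPM for low Dcn. Of the 4 cells under the line, SU cells 66 and 43 are among the highest in the endothelial genes and SU cell 44 is not.

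The listed collagens, fibrillar and other, and matrix assembly factors had ratios that changed sign between assays for some genes and not for others. Of 15 listed genes 8 had an identifier. Toward VMP 1 of 8 passed the limit in Tag-seq (7.2% of all transcripts), and toward SU 5 of 8 passed it in RNA-seq (15.2%) and 3 of 8 in the summed cells (20.7%). The median log2 ratios of the list were 0.86, -1.83 and -1.29 in that order, against -0.01, 0.02 and 0.07 over all transcripts measured. Col3a1, a chain of collagen type III, had log2 ratios of 0.32, -1.95 and -1.79. Col1a1, of collagen type I, had 1.30, -1.27 and -1.52, and Col6a2, of collagen type VI, had 0.60, -1.70 and -1.20. Col12a1, of a collagen on fibril surfaces, was higher in VMP in all 3 assays, with 1.53, 0.76 and 0.35. Col14a1 was higher in SU in all 3, with -1.33, -3.40 and -3.26. The corresponding Dcn ratios were 1.63, -0.08 and 0.01.

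The enzymes that build chondroitin and dermatan sulfate chains gave 4 of 14 genes with an identifier. In Tag-seq 3 of the 4 passed the limit toward VMP (7.2% of all transcripts), and none did in RNA-seq (15.9%) or the summed cells (17.8%). Chpf, a chondroitin polymerizing factor, had log2 ratios of 1.80 in Tag-seq, -0.16 in RNA-seq and 0.06 in the summed cells. Dse, the epimerase that makes dermatan sulfate, had 1.16, -1.13 and -1.01. The list medians were 1.77, -0.36 and -0.02.

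Among ligands and receptors of decorin and asporin, 6 of 15 had an identifier, and in both bulk assays 2 passed the limit toward VMP and 3 toward SU. Of all transcripts, 7.2% and 14.2% did so in Tag-seq and 15.9% and 15.2% in RNA-seq. In the summed cells 5 were measured, and 1 passed the limit toward VMP (17.8% of all) and 1 toward SU (20.7%). Tgfb3, a transforming growth factor β ligand, was higher in VMP in all 3 assays, with log2 ratios of 1.55, 1.72 and 1.19. Kdr, which decorin can bind, had 1.97, 2.86 and 2.35. Bmp2, a bone morphogenetic protein that asporin can bind, was higher in SU, with -2.61, -3.04 and -2.44. Tgfb3, Kdr and Bmp2 kept a direction over the assays, as did Lum, Col12a1 and Col14a1, while Aspn, Bgn, Col1a1 and Col3a1 did not. Igf1r, also on the list of ligands and receptors, changed sign, with -1.31, -2.03 and 0.11. The list medians were -1.60, -1.02 and 0.11.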

How the data were processed

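The values deposited by the authors are raw read counts for each Ensembl gene in all 3 assays. The authors aligned Tag-seq reads with Bowtie2 to Rnor_6.0 and kept unique, non-mitochondrial alignments. For single cells they used Trimmomatic 0.33, TopHat and Picard 1.128, which removed duplicates. HTSeq appears in the submitters' processing notes and summarizeOverlaps in the paper, so the counter, and how it treated reads shared by the asporin rows, is not settled here. The alignment of the RNA-seq libraries is not described separately. All sample columns were mapped to labels. The 95 spike-in rows stayed out of library sizes.

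Levels are CPM of gene counts. Bulk log2 ratios used TMM scaling, a pseudocount of 0.5 counts and transcripts whose CPM exceeded 1 in a library of either tissue, and intervals are at 95%. A count of 0 allows 3 counts. Ratios of summed cells used total counts. The joint fit used edgeR 4.0.16 in R 4.3.3 over transcripts whose CPM exceeded 1 in 2 or more of the 4 libraries, with Benjamini-Hochberg adjustment at 0.05, and DESeq2 1.42.0 as an alternative. Cell statistics used Python 3.11.15, pandas 2.3.3 and scipy 1.17.1. The ratios and the fit were run on simulated counts in which changes were the same in every assay. Disagreement between assays, the spread of the joint fit, was not simulated. The study's call by NOISeq was not used, because its q ranks a ratio against simulated libraries, so the limit of 1.5 stands alone.

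Symbols and positions came from the tables of differential transcripts, which pair 2995 identifiers with symbols in the part used here. Fold changes in those tables were not used. The text names Dcn, Aspn, all matched SLRPs, 2 to 4 of the most abundant genes of other lists (Col14a1 was added after its values were seen), the 5 genes most like each of Dcn and Aspn (1 of those for Aspn is not reported here), and marker genes of the cells low in Dcn. The rank of Emcn was looked up after its values were seen. The members and lists were chosen with earlier results of these data known. Cycling markers (0 of 8 matched) and most SLRPs were not analysed here.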

Additional observations from a re-analysis of the deposited data

Results flagged for a closer look

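Among Dcn, both asporin rows, Bgn, Lum and Ogn, the tissue ratios of 4 had counting intervals on opposite sides of 0 in 2 assays. How many of all transcripts did so was not counted. Col1a1 and Col3a1 did so as well, so the reversal is not particular to these genes. With 1 library per tissue and assay, no such difference was tested. The log2 ratio of Dcn was 1.70 higher in Tag-seq than in RNA-seq, and its sign in RNA-seq depended on the scaling. The ratio of Aspn in RNA-seq minus that in the summed cells was -2.66, and for Aspnl1 it was -3.02. The ratio of Bgn was 2.89 higher in Tag-seq than in RNA-seq and 2.63 higher than in the summed cells.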

How the results depend on the processing

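With 1 library per tissue and assay, a library left out leaves no spread to test, so none was left out, and the value of each assay alone is in the report. No paired analysis was possible for the cells because the numbers shared by VMP and SU cells only name cells. In the joint fit the assay is the block. Without the block, 0 of 15221 transcripts were called by edgeR (5 at an unadjusted p under 0.05), against 312 with it and 189 by DESeq2, and the log2 fold change of Dcn was 0.76 with p = 0.730 in place of 0.358. The fold change of Dcn kept its direction and stayed short of the threshold in all 4 alternatives.

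Scaling by total count gave Dcn log2 ratios of 1.76 in Tag-seq and 0.14 in RNA-seq. Both asporin rows added gave Aspn -2.31 in RNA-seq. Calls in Tag-seq toward VMP numbered 878, and 1935 at a limit of 1, 570 with a pseudocount of 5 and 1643 with no filter, and toward SU 1728 became 3364 with no filter. In RNA-seq the 2792 calls toward VMP became 1809 and 4494 with the pseudocount and with no filter. In the summed cells the Dcn ratio was -0.022 as a mean of cells, -0.51 with spike-in scaling, 0.029 in cells within 3 median absolute deviations, -0.024 thinned, -0.016 without low cells, -0.070 with TMM, -0.10 with DESeq2 size factors and -0.10 without the 8 cells high in endothelial genes. The Aspn ratio in that order was 0.82, 0.52, 0.67, 0.89, 0.69, 0.64, 0.60 and 0.60, and it was 0.55 with both rows and 0.89 without the 3 highest cells. The percentage of cells with an Aspn read was 39.4 in SU after thinning, and 73.5 in VMP and 75.8 in SU with both rows. Cells low in Dcn numbered 8 under 0.2 and 0 under 0.05 of the median, and 7 with spike-in scaling, of which 2 were among the 4. The causes were not tested. Added after seeing the data were TMM and size factors for the summed cells, both rows added, and the cells left out for endothelial genes or high Aspn. The Dcn medians moved by less than 1 SD over cells in every alternative run. The rho of Dcn with Aspn ran from 0.05 to 0.08 in VMP and from -0.05 to 0.02 in SU, where its sign changed with Pearson r.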
